A study of Mus musculus with 4 samples.

Results

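The miR-10, miR-99/100 and miR-125 families were followed in small RNA libraries of mouse testis through 7 mature 5p microRNAs (miRNAs): mmu-miR-10a-5p, mmu-miR-10b-5p, mmu-miR-99a-5p, mmu-miR-99b-5p, mmu-miR-100-5p, mmu-miR-125a-5p and mmu-miR-125b-5p. They were chosen by name, and each count was the sum of reads of 18 to 25 nt deposited under that mature name, with every sequence taken once per library. All 7 had reads in all 4 libraries, out of 991 mature names with any such read. The libraries came from whole testes of mice at postnatal day 16, 2 with a knockdown of the heat shock factor gene Hsf5 and 2 wild type. The labels give no strain, no means of knockdown and no number of animals per library, and they call the replicates biological. In the deposited table the same 2 libraries are called knockouts, and the labels' word is used here. Small RNA libraries do not measure messenger RNA and the gene-class lines carry no gene name, so the degree of Hsf5 knockdown was not checked.

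A miRNA finds its targets mainly through its seed, bases 2 to 8 counted from the 5′ end, and miRNAs with one seed form a family. The miR-10 genes lie inside Hox clusters and are known as repressors of Hox genes, and miR-100 and miR-99a are known for repressing the growth kinase gene Mtor. The miR-125 family descends from lin-4, the developmental timing miRNA of Caenorhabditis elegans, and miR-125b is known for repressing Lin28a and Trp53. Members of the miR-99/100 and miR-125 families share primary transcripts with let-7 miRNAs in most animals, which makes the let-7 neighbours natural points of comparison. HSF5 is a testis transcription factor needed for spermatocytes to pass through meiotic prophase.

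The mature sequences are shown because the comparisons below turn on which bases the members share. They are RefSeq's, from a table of build GRCm38.p6, in which all 7 were found. Each runs 5′ to 3′ with its seed in capitals.
mmu-miR-10a-5p: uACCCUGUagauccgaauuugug
mmu-miR-10b-5p: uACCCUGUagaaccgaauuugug
mmu-miR-99a-5p: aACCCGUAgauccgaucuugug
mmu-miR-100-5p: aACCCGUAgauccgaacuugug
mmu-miR-99b-5p: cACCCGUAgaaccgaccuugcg
mmu-miR-125a-5p: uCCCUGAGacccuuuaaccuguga
mmu-miR-125b-5p: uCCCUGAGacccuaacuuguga

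With positions counted from 1 at the 5′ end, mmu-miR-10a-5p and mmu-miR-10b-5p differ by U12A alone, and mmu-miR-99a-5p and mmu-miR-100-5p by U16A alone. The mmu-miR-99b-5p sequence matches mmu-miR-99a-5p at 18 of 22 positions, and mmu-miR-125a-5p matches mmu-miR-125b-5p at 15 of 22. The miR-10 seed ACCCUGU and the miR-99/100 seed ACCCGUA begin with the same 4 bases. The miR-125 seed CCCUGAG is also that of miR-351-5p, which is X-linked, and of miR-6367 and miR-6394, which had no read in any library.

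The hairpin genes stand in 2 Hox clusters and 3 let-7 clusters (GRCm39, the genome build named by the submitters, GENCODE M39 annotation, all on the plus strand). Mir10a (chr11:96207991-96208100) lies 993 bp from Hoxb4, and Mir10b (chr2:74556414-74556481) lies in an intron of Hoxd3 and Hoxd4. Mir99a (chr16:77395824-77395888) and, 656 bp after it, Mirlet7c-1 lie in introns of the long non-coding gene Mir99ahg, as does Mir125b-2 (chr16:77443161-77443231) another 46.5 kb on. Mir100 (chr9:41442721-41442800) and Mirlet7a-2, 5.21 kb after it, lie in introns of the paralogous gene Mir100hg, and Mir125b-1 (chr9:41493222-41493298) follows after another 45.1 kb. The cluster on chromosome 17 is compact: Mir99b (chr17:18050450-18050519), Mirlet7e 94 bp later and Mir125a (chr17:18051074-18051141) 367 bp after that, all within Spaca6, a gene of a sperm membrane protein needed for fertilization. The mature mmu-miR-125b-5p is the product of 2 genes and cannot be assigned to one of them by its own sequence.

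Libraries held 9619666 and 10900306 reads in Hsf5 knockdown replicates 1 and 2, and 11117460 and 9260452 in wild type replicates 1 and 2. Values per library follow that order throughout. Mature miRNAs of 18 to 25 nt took 1947703 and 1851650 reads in the knockdown and 1998793 and 1393676 in the wild type. Levels are given as RPM, reads per 1000000 mature miRNA reads of the library, on which a count of 0 allows up to 1.54, 1.62, 1.501 and 2.15 RPM (3 reads). Tests used CPM, counts per 1000000 after scaling by TMM factors, which were 0.712 for knockdown replicate 2 and 1.10 to 1.14 for the other libraries, so that the CPM of that library stand above its RPM relative to the rest. The check of the tissue by markers gave 5956 and 6991 RPM of miR-34c-5p, a miRNA of meiotic and later male germ cells, in the knockdown and 4634 and 7642 RPM in the wild type. Of the other spermatocyte markers miR-449a-5p had 155 and 51.8 RPM in the knockdown and 67.0 and 141 RPM in the wild type, miR-449c-5p had no read and miR-34b-5p had 2 reads in every library.

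The 7 miRNAs held a large share of all mature miRNA reads. Summed, they took 23.6% and 16.5% in the knockdown libraries, against 20.3% and 21.7% in the wild-type libraries. One knockdown library was thus above both wild-type libraries and the other below them, with means of 20.05% ± 4.96 in the knockdown and 21.0% ± 0.984 in the wild type (SD, n = 2 each, exact two-sided permutation p = 1). With 2 libraries on each side there are 6 assignments, and 0.333 is the smallest exact p they allow. Counting error was at most 0.0684 percentage points for this sum and 0.0404 for the share of any member (half-width of the 95% Wilson interval, counting error only). Of the members mmu-miR-99a-5p, mmu-miR-10b-5p, mmu-miR-99b-5p and mmu-miR-100-5p stood among the 20 most abundant of the 991 mature names in each library.

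Within the 7, knockdown replicate 2 had another make-up than the other 3 libraries. The miR-10 family took 19.6% and 46.5% of the members' reads in the knockdown and 24.6% and 21.2% in the wild type. The miR-99/100 family took 63.0% and 48.0% in the knockdown and 60.0% and 62.9% in the wild type. The miR-125 family took 17.47% and 5.55% in the knockdown and 15.5% and 15.9% in the wild type. For each family knockdown replicate 1 was the nearer of the 2 to the wild type, and knockdown replicate 2 lay outside the range of the other 3 libraries.

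**Figure D1:**
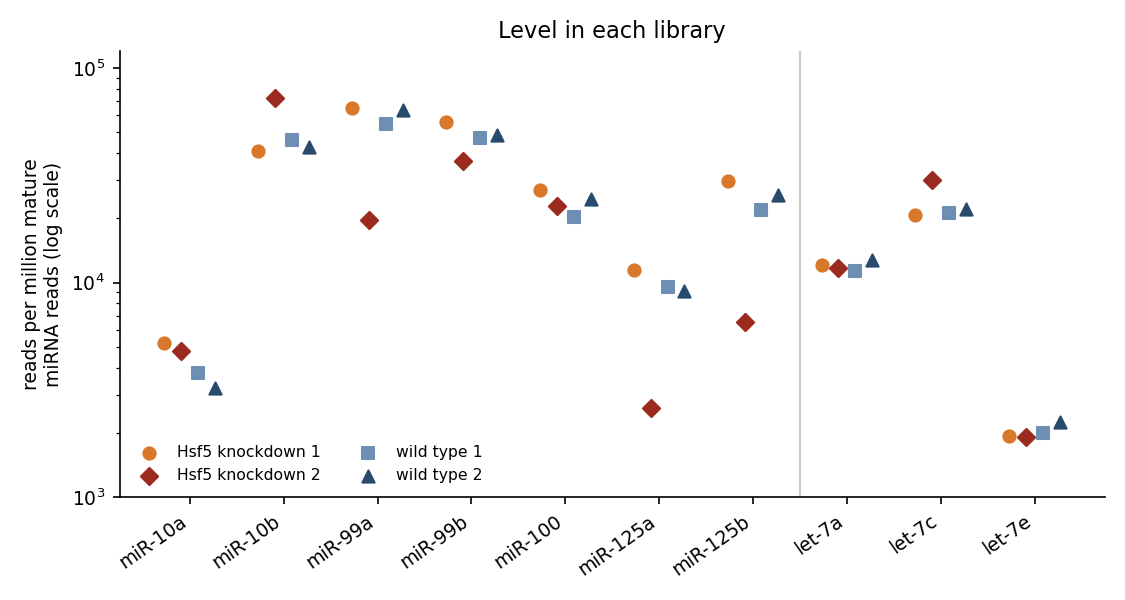
Level of the 7 miRNAs and, right of the grey line, of 3 let-7 neighbours in each library, in reads per 1000000 mature miRNA reads on a log axis; each point is 1 library. In Hsf5 knockdown replicate 2 (dark red diamonds) mmu-miR-99a-5p, mmu-miR-125a-5p and mmu-miR-125b-5p stand at 19618, 2606 and 6574 RPM, below the other 3 libraries, and mmu-miR-10b-5p at 72110 RPM above them.

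The 2 miR-10 miRNAs differ by 1 base and in level by about an order of magnitude. The level of mmu-miR-10a-5p was 5246 and 4777 RPM in the knockdown, against 3794 and 3235 RPM in the wild type. Both knockdown libraries were above both wild-type libraries on the RPM scale, which held for 1 of the 7 members. The share of all names on that scale was not counted, and in CPM it was 11.3%. Its log2 difference on the CPM scale was 0.85 (SE 0.40), the largest of the members, with an unadjusted p of 0.0843 and an adjusted p of 0.992 (edgeR's quasi-likelihood test, Benjamini-Hochberg adjusted). The level of mmu-miR-10b-5p was 40790 and 72110 RPM in the knockdown and 46067 and 42668 RPM in the wild type, so knockdown replicate 2 was high and replicate 1 was the lowest of the 4. On the CPM scale this gave 32629 and 91347 against 37461 and 34428, a log2 difference of 0.79 (SE 0.60, adjusted p = 0.992).

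Among the 3 miRNAs of the miR-99/100 seed, mmu-miR-99a-5p and mmu-miR-99b-5p were similar in level in 3 libraries. The level of mmu-miR-99a-5p was 65200 and 19618 RPM in the knockdown and 54441 and 63298 RPM in the wild type, which ranks it 2 and 17 in the knockdown and 4 and 2 in the wild type among all mature names. Knockdown replicate 2 stood at 0.333 times the wild-type mean and replicate 1 at 1.11 times. The level of mmu-miR-99b-5p was 56117 and 36967 RPM in the knockdown, against 47127 and 48767 RPM in the wild type. The level of mmu-miR-100-5p was 27005 and 22778 RPM in the knockdown and 20210 and 24496 RPM in the wild type, the narrowest spread of the 7 as a ratio of the highest to the lowest library. Log2 differences on the CPM scale were -0.31 (SE 0.51) for mmu-miR-99a-5p, 0.24 (SE 0.39) for mmu-miR-99b-5p and 0.48 (SE 0.41) for mmu-miR-100-5p, each with an adjusted p of 0.992 in the same edgeR test. For mmu-miR-99b-5p the sign rests on the TMM factors, since scaling by miRNA totals gave -0.036. The same scaling gave 0.16 for mmu-miR-100-5p, -0.46 for mmu-miR-99a-5p, 0.52 for mmu-miR-10a-5p and 0.35 for mmu-miR-10b-5p. Without knockdown replicate 2 mmu-miR-100-5p stood at 0.31, and without knockdown replicate 1 at 0.72.

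In mature reads both miR-125 miRNAs were low in the second knockdown library by nearly the same factor. The level of mmu-miR-125a-5p was 11454 and 2606 RPM in the knockdown, against 9581 and 9114 RPM in the wild type. The level of mmu-miR-125b-5p was 29688 and 6574 RPM in the knockdown, against 21883 and 25447 RPM in the wild type. Knockdown replicate 2 thus stood at 0.279 times the wild-type mean for mmu-miR-125a-5p and at 0.278 times for mmu-miR-125b-5p, while knockdown replicate 1 stood at 1.23 and 1.26 times. Over both libraries the log2 differences on the CPM scale were -0.28 (SE 0.58) and -0.26 (SE 0.59), in the same order, with adjusted p = 0.992 for both in the edgeR test. Scaling by all reads of 18 to 40 nt gave -0.13 and -0.086, and -0.19 for mmu-miR-99a-5p. The 95% interval of the second ran from -1.77 to 1.26, so differences of either sign remain within it.

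None of the 7 passed the test between the groups, and neither did any other miRNA (0 of 7 members, 0% of 936 names tested, edgeR's quasi-likelihood test, Benjamini-Hochberg adjusted at 0.05). At an unadjusted p under 0.05 the test had 4 names higher and 10 lower in the knockdown, and DESeq2 called 0 after adjustment. The log2 difference was above 0 for 4 members and below 0 for 3, with a median of 0.24 over the members and 0.0090 over all 936 names. In CPM, both knockdown libraries were above both wild-type libraries for 3 of the 7 (mmu-miR-10a-5p, mmu-miR-99b-5p and mmu-miR-100-5p), against 11.3% of all names, and below them for 0 of the 7, against 17.7%. Knockdown replicate 2 was the highest of the 4 libraries in CPM for 4 of the 7, against 32.3% of all names, and the lowest for 3, against 38.1%. For mmu-miR-125a-5p and mmu-miR-125b-5p it was under 0.5 times the lowest other library, which held for 16.1% of all names.

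With knockdown replicate 1 left out, 1 member passed: mmu-miR-10b-5p was higher in the remaining knockdown library (log2 1.39, SE 0.16, adjusted p = 0.0424 by edgeR), where 6.21% of 853 names passed. The lone library is then assumed to vary as the wild-type pair does. With knockdown replicate 2 left out, 0 of the 7 passed (0.444% of 901 names), and the log2 differences of mmu-miR-10b-5p, mmu-miR-99a-5p, mmu-miR-125a-5p and mmu-miR-125b-5p changed sign, to -0.087, 0.18, 0.33 and 0.36.

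Summed markers of several other testis cells were also low in the second knockdown library. The 2 Sertoli cell markers, miR-202-5p and miR-202-3p, summed to 4075 and 1843 RPM in the knockdown and 4384 and 3762 RPM in the wild type. The 4 spermatogonial markers summed to 2843 and 1291 RPM in the knockdown and 2523 and 2702 RPM in the wild type. The 6 markers of muscle, mesenchyme and endothelium summed to 48815 and 49642 RPM in the knockdown and 50311 and 52596 RPM in the wild type, of which miR-143-3p made up most. The 3 blood markers summed to 199 and 64.3 RPM in the knockdown and 219 and 222 RPM in the wild type, and miR-451a, the erythroid miRNA, was at 28.8 and 30.2 RPM against 28.0 and 33.0 RPM. On the CPM scale knockdown replicate 2 was the lowest library for 1 of the 2 Sertoli markers, 2 of the 4 spermatogonial, 4 of the 6 muscle, mesenchyme and endothelium and 1 of the 2 tested blood markers, against 38.1% of all names. In whole testis, fewer cells of a type and less RNA per cell cannot be told apart, and the part of these cells in the levels of the 7 miRNAs was not tested.

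Ratios within a library do not depend on the scaling between libraries. Several ratios between miRNAs with neighbouring genes stood apart in knockdown replicate 2, though some of these miRNAs also have genes elsewhere. On chromosome 16, the ratio of mmu-miR-99a-5p to its near neighbour let-7c-5p was 3.18 and 0.653 in the knockdown, against 2.59 and 2.88 in the wild type. The mature let-7c-5p is also made from a second gene elsewhere in the genome. Its level was 20531 and 30062 RPM in the knockdown and 21059 and 22015 RPM in the wild type, so it was high where mmu-miR-99a-5p was low. The arm let-7c-1-3p, from the gene next to Mir99a alone, stood at 0.6925 and 0.324 times the wild-type mean in the knockdown. For mmu-miR-99a-5p these values were 1.11 and 0.333. The ratio to let-7c-5p therefore does not follow that neighbouring gene alone. The ratio of mmu-miR-99a-5p to mmu-miR-125b-5p held closer together, at 2.20 and 2.98 in the knockdown and 2.49 in both wild-type libraries.

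Of the miRNAs encoded on chromosome 9, mmu-miR-100-5p stayed closer to let-7a-5p than to mmu-miR-125b-5p. The mature let-7a-5p is also made from genes on other chromosomes, and let-7a-2-3p, the arm particular to the chromosome 9 gene, had 0 reads in both knockdown libraries and 0 and 1 in the wild type, so the ratio does not follow that gene alone. The ratio of mmu-miR-100-5p to let-7a-5p was 2.24 and 1.96 in the knockdown and 1.79 and 1.93 in the wild type. The ratio of mmu-miR-100-5p to mmu-miR-125b-5p was 0.910 and 3.47 in the knockdown, against 0.924 and 0.963 in the wild type, so 3 libraries lay close together and knockdown replicate 2 stood apart.

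On chromosome 17 all 3 hairpins lie within a kilobase and each mature miRNA has 1 gene. There mmu-miR-125a-5p parted from both neighbours in knockdown replicate 2. The ratio of mmu-miR-99b-5p to mmu-miR-125a-5p was 4.90 and 14.2 in the knockdown, against 4.92 and 5.35 in the wild type. The ratio of mmu-miR-125a-5p to let-7e-5p was 5.95 and 1.37 in the knockdown and 4.80 and 4.06 in the wild type. The ratio of mmu-miR-99b-5p to let-7e-5p was 29.2 and 19.4 in the knockdown and 23.6 and 21.7 in the wild type. Levels of let-7e-5p itself were 1924 and 1904 RPM in the knockdown and 1996 and 2243 RPM in the wild type.

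**Figure D2:**
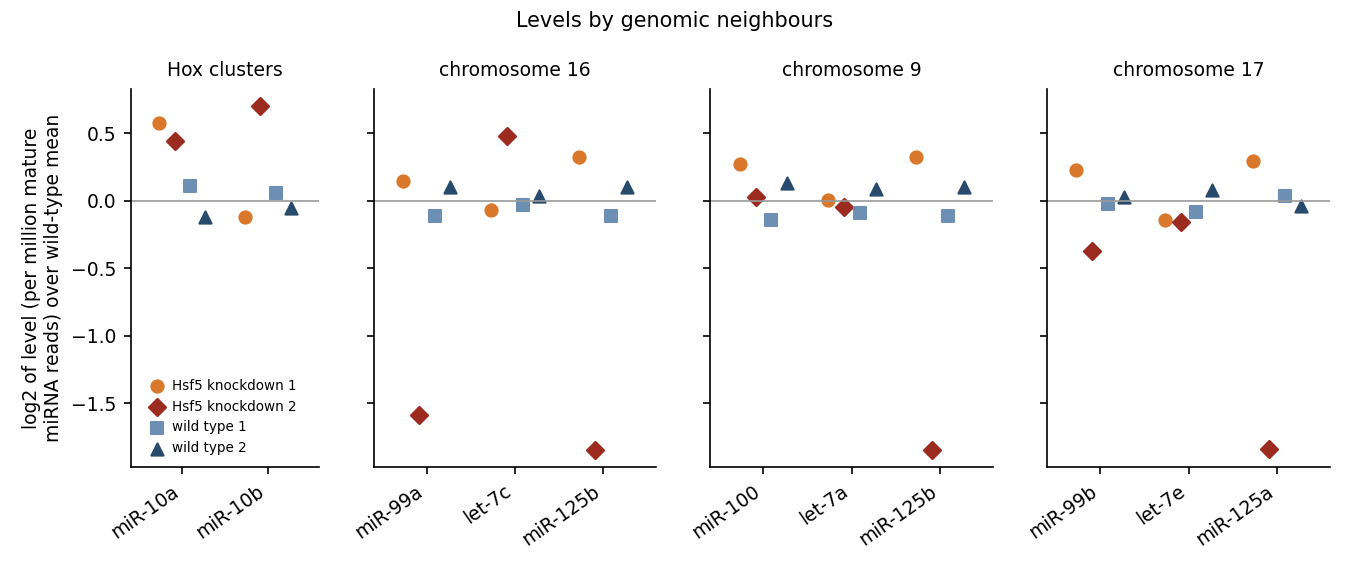
Log2 of the level (reads per 1000000 mature miRNA reads) over the wild-type mean, by genomic neighbourhood in 5′ to 3′ order; each point is 1 library and mmu-miR-125b-5p, made from genes on chromosomes 16 and 9, is drawn in both panels. In Hsf5 knockdown replicate 2 (dark red diamonds) mmu-miR-99a-5p stands at 0.333, mmu-miR-125b-5p at 0.278 and mmu-miR-125a-5p at 0.279 times the wild-type mean, while mmu-miR-100-5p and let-7a-5p stand at 1.02 and 0.970 times.

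Between clusters, mature reads of family members from different chromosomes kept together in 1 case and not in others. The ratio of mmu-miR-125b-5p to mmu-miR-125a-5p was 2.59 and 2.52 in the knockdown and 2.28 and 2.79 in the wild type, with knockdown replicate 2 inside the range of the wild type although both miRNAs were low there. It leaves out listed reads with added 3′ bases, described below. Those were 13.3% and 29.05% of mmu-miR-125b-5p in the knockdown and 16.1% and 13.65% in the wild type. For mmu-miR-125a-5p they were 5.07% and 8.60% against 6.86% and 6.40%. A ratio with them included was not computed. It would rise most in knockdown replicate 2, where the shares of both miRNAs lie furthest apart. The closeness above is therefore shown for mature reads only. The ratio of mmu-miR-99a-5p to mmu-miR-100-5p, which differ by 1 base, was 2.41 and 0.861 in the knockdown, against 2.69 and 2.58 in the wild type, below both in either knockdown library (exact permutation p = 0.333). The ratio of mmu-miR-10b-5p to mmu-miR-10a-5p was 7.78 and 15.1 in the knockdown and 12.1 and 13.2 in the wild type. In all, 18 ratios were compared by exact permutation of the log2 ratio, and each adjusted p was 1.

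The 3p arm of a hairpin is usually the strand that is degraded, and the 3p arms of these hairpins were rare. The 5p reads of miR-10b outnumbered the 3p reads 1059 and 4173 times in the knockdown and 980 and 959 times in the wild type, both knockdown libraries being above the wild type (exact permutation p = 0.333, with only 75, 32, 94 and 62 reads of the 3p arm). For miR-99b the ratio of 5p to 3p was 175 and 64.6 in the knockdown and 136 and 157 in the wild type. For miR-125a it was 119 and 73.1 in the knockdown and 124 and 163 in the wild type. For miR-10a it was 269 and 1264 in the knockdown and 399 and 237 in the wild type, on 38, 7, 19 and 19 reads of the 3p arm. The 3p arms of miR-99a and miR-100 had at most 4 reads in any library, against at least 34139 reads of their 5p arms.

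The 3p arms tell the 2 genes of miR-125b apart, and the extended forms are deposited under the names of both but are less certain. Arm miR-125b-1-3p, from chromosome 9, had 385 and 270 reads in the knockdown and 535 and 344 in the wild type, and miR-125b-2-3p, from chromosome 16, had 416 and 231 in the knockdown and 359 and 272 in the wild type. The ratio of the first to the second was 0.926 and 1.17 in the knockdown and 1.49 and 1.27 in the wild type (exact permutation p = 0.333). The 5p reads that run past the mature end gave another picture, with 2553 and 978 reads in the knockdown and 2296 and 1662 in the wild type under the name of mir-125b-1, which continues with U, and 203 and 65 against 212 and 149 under mir-125b-2, which continues with G. The mir-125b-1 form was 92.6% and 93.8% of such reads in the knockdown and 91.6% and 91.8% in the wild type. A U added after cleavage to a product of either gene cannot be told from the mir-125b-1 extension. The ratio of mmu-miR-125b-5p reads to the sum of both 3p arms was 72.2 and 24.3 in the knockdown and 48.9 and 57.6 in the wild type.

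A start 1 base inside the annotated 5′ end moves the seed by 1 base, and 3 members had such forms at more than 5% of their reads. The most abundant are shown with the bases at positions 2 to 8 of the shifted form in capitals, in the DNA letters of the deposited table.
mmu-miR-10a-5p from base 2: aCCCTGTAgatccgaatttgtg
mmu-miR-10b-5p from base 2: aCCCTGTAgaaccgaatttgtg
mmu-miR-125b-5p from base 2: cCCTGAGAccctaacttgtga

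The shifted start took 38.9% and 33.3% of the mature and extended reads of mmu-miR-10a-5p in the knockdown and 38.5% and 38.4% in the wild type. For mmu-miR-10b-5p, which has the same first 11 bases, it took 21.6% and 21.0% in the knockdown and 22.2% and 21.0% in the wild type. In every library the difference between these near-identical miRNAs was larger than the spread of either one between libraries. For mmu-miR-125b-5p the shifted start took 6.58% and 12.3% in the knockdown and 6.84% and 6.12% in the wild type, so knockdown replicate 2 was high. For the other 4 members it was at most 1.05% in any library. Of the 76 mature miRNAs with at least 1000 reads in each library, 10.5% had over 10% of mature reads with the shifted start in every library, 2 of the 7 members among them. The shifted seeds CCCUGUA and CCUGAGA belong to no annotated mature mouse miRNA in the RefSeq table. A start 1 base before the annotated one was seen in mmu-miR-99a-5p, at 0.734% and 0.938% in the knockdown and 0.847% and 0.755% in the wild type, and in mmu-miR-10a-5p, at 0.362% and 0.349% in the knockdown and 0.578% and 0.569% in the wild type (exact permutation p = 0.333, 42 and 36 reads against 53 and 30). It was at most 0.0882% for the other 5 members.

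Of the 7 members 4 were mainly 22 nt long, and the other 3 were mainly 21 nt or spread over 2 lengths. Both miR-10 miRNAs were mainly 22 nt: mmu-miR-10a-5p at 70.3% and 70.1% of mature reads in the knockdown and 70.2% in both wild-type libraries, and mmu-miR-10b-5p at 73.8% and 72.7% in the knockdown and 72.0% and 73.4% in the wild type. This length joins 2 forms, reads from base 1 that end 1 base short of the RefSeq end and reads from base 2 that reach it. For mmu-miR-10a-5p the first took 46.1% and 52.7% in the knockdown and 46.3% and 47.3% in the wild type, and the second 24.2% and 17.4% against 23.9% and 22.8%. For mmu-miR-10b-5p the second took 10.3% and 9.70% in the knockdown and 10.8% and 9.80% in the wild type. The 2 miRNAs that differ only at base 16 had different main lengths. Reads of mmu-miR-99a-5p were mainly 21 nt, 73.8% and 79.4% in the knockdown and 75.9% in both wild-type libraries, and those of mmu-miR-100-5p mainly 22 nt, 68.5% and 67.5% in the knockdown and 70.7% and 71.4% in the wild type. The mmu-miR-99b-5p reads were spread over 20 to 22 nt, with 54.6% and 51.0% of 22 nt in the knockdown and 55.4% and 55.2% in the wild type. For mmu-miR-125a-5p 22 and 23 nt led in every library, and for mmu-miR-125b-5p 21 and 22 nt.

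Small differences of the 3′ end lay between the groups. The share ending 2 bases short of the RefSeq end was above both wild-type libraries in both knockdown libraries for 6 of the 7 members, the exception being mmu-miR-125b-5p, against 26.3% of the 76 abundant miRNAs, and below for 0 of the 7, against 3.95%. It was 14.4% and 14.6% in the knockdown against 12.9% and 13.1% in the wild type for mmu-miR-99b-5p, 3.01% and 2.66% against 1.73% and 2.19% for mmu-miR-99a-5p, and 2.05% and 1.98% against 1.32% and 1.72% for mmu-miR-100-5p (exact permutation p = 0.333 each). For mmu-miR-125a-5p, for which this is a leading form, it was 45.0% and 41.9% in the knockdown and 37.0% and 41.4% in the wild type. The mean length was below both wild-type libraries in both knockdown libraries for mmu-miR-99b-5p, mmu-miR-100-5p and mmu-miR-125a-5p, 3 of the 7, against 18.4% of the 76, and above for 0 of the 7, against 0%. The largest of these differences in mean length was -0.0942 nt (mmu-miR-125a-5p, 22.39 and 22.37 nt in the knockdown against 22.54 and 22.41 nt in the wild type), which was -0.029 nt without wild type replicate 1 and -0.159 nt without wild type replicate 2. For mmu-miR-99b-5p it was -0.0438 nt, and -0.0268 nt without knockdown replicate 2. Without wild type replicate 1 the difference in the share ending 2 bases short was 2.12 percentage points for mmu-miR-125a-5p, against 4.31 with it, 0.321 against 0.672 for mmu-miR-10b-5p and 0.295 against 0.498 for mmu-miR-100-5p. The end forms were compared with the other miRNAs after their values had been seen.

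**Figure D3:**
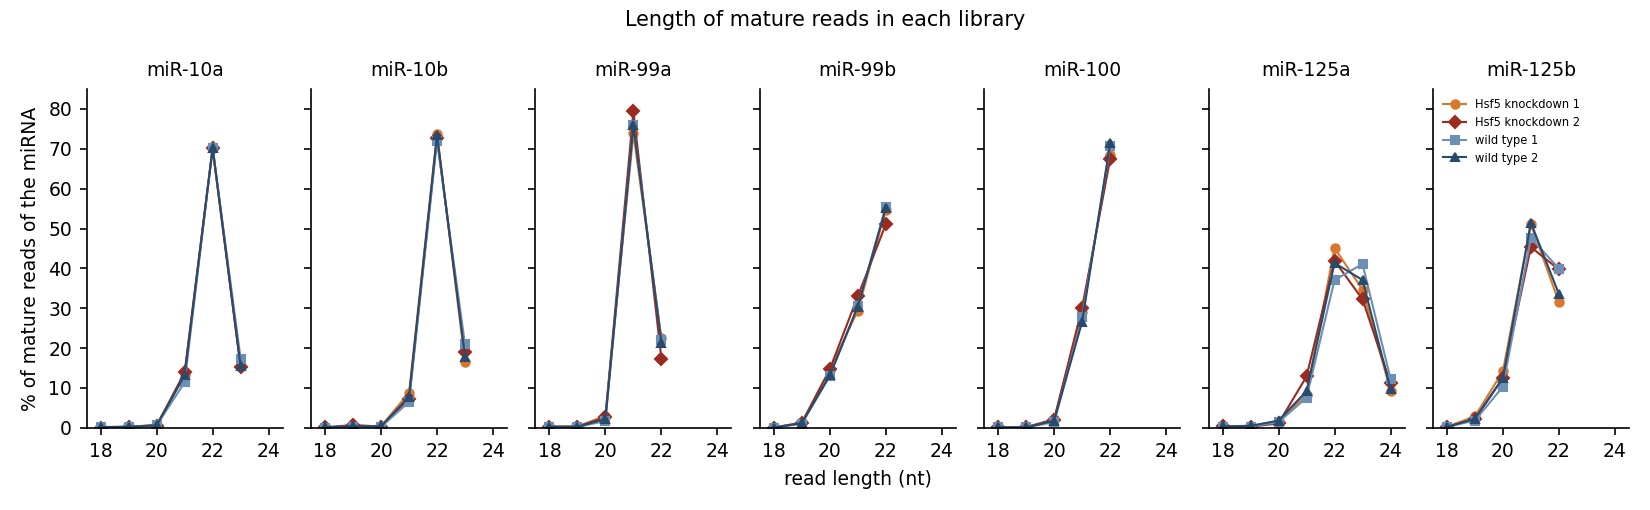
Share of each read length among the mature reads of each miRNA (y axis, percent; x axis, nt); each line is 1 library, and mature reads end by construction at or before the RefSeq 3′ end. In every library mmu-miR-99a-5p is mainly at 21 nt (73.8% to 79.4%) and mmu-miR-100-5p mainly at 22 nt (67.5% to 71.4%). Lines part for mmu-miR-125a-5p at 23 nt (34.7% and 32.25% in the Hsf5 knockdown, 41.1% and 37.1% in the wild type). They also part for mmu-miR-125b-5p at 22 nt (31.5% and 39.7% in the knockdown, 39.9% and 33.6% in the wild type).

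Reads that carry 1 or 2 added bases at the 3′ end were searched for only outside the miRNA class. Those found stood under genes and repeat elements apart from 17 reads under nrRNA. Of the 21 most abundant such forms, 3 per member, 0 had an exact match in GRCm39. The 2 most abundant of all are shown with the added base in capitals.
mmu-miR-99b-5p with added U: cacccgtagaaccgaccttgcgT
mmu-miR-125b-5p with added A: tccctgagaccctaacttgtgaA

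The table lists these forms only where the authors' annotation gave them a name: no read of mmu-miR-99a-5p or mmu-miR-100-5p with an A or U after the full 22 nt is listed, and 97.3% of the listed reads of mmu-miR-125b-5p with added bases stand under LTR elements. Shares can therefore be compared between libraries for 1 member and not between members. For mmu-miR-10a-5p and mmu-miR-10b-5p the base after the mature end in the genome is itself a U, so an added U there cannot be recognised.

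Reads of mmu-miR-125b-5p with 1 added A made up 9.96% and 26.04% of its mature, extended and tailed reads in the knockdown, against 12.6% and 10.3% in the wild type. The leading form was at 3363 and 2453 RPM in the knockdown and 3300 and 3033 RPM in the wild type, lowest in knockdown replicate 2 but by a smaller factor than the mature reads above. The same library had the highest share of added A for mmu-miR-125a-5p, at 1.69% and 3.33% in the knockdown and 2.10% and 1.82% in the wild type, and for mmu-miR-99a-5p, at 0.420% and 0.789% in the knockdown and 0.401% and 0.395% in the wild type. These are also the 3 members for which that library was the lowest of the 4 in CPM. For them the share was over 1.5 times that of the highest other library, which held for 11.8% of the 76 abundant miRNAs. It was the highest of the 4 libraries for 5 of the 7 members, against 53.9% of the 76. For mmu-miR-10b-5p it was 2.11% and 2.67% in the knockdown and 2.74% and 2.32% in the wild type. Without knockdown replicate 2 the share of mmu-miR-125b-5p with added A was lower in the knockdown by 1.49 percentage points.

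An added U was listed for mmu-miR-99b-5p in every library, at 6.65% and 7.84% of its reads in the knockdown and 8.86% and 7.14% in the wild type. For mmu-miR-125a-5p it was 2.91% and 4.36% in the knockdown and 4.08% and 4.13% in the wild type. For mmu-miR-125b-5p it was 2.87% and 2.26% in the knockdown and 2.94% and 2.81% in the wild type. Groups overlapped for each of these miRNAs. Added C or G was at most 0.265% for any member in any library.

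**Figure D4:**
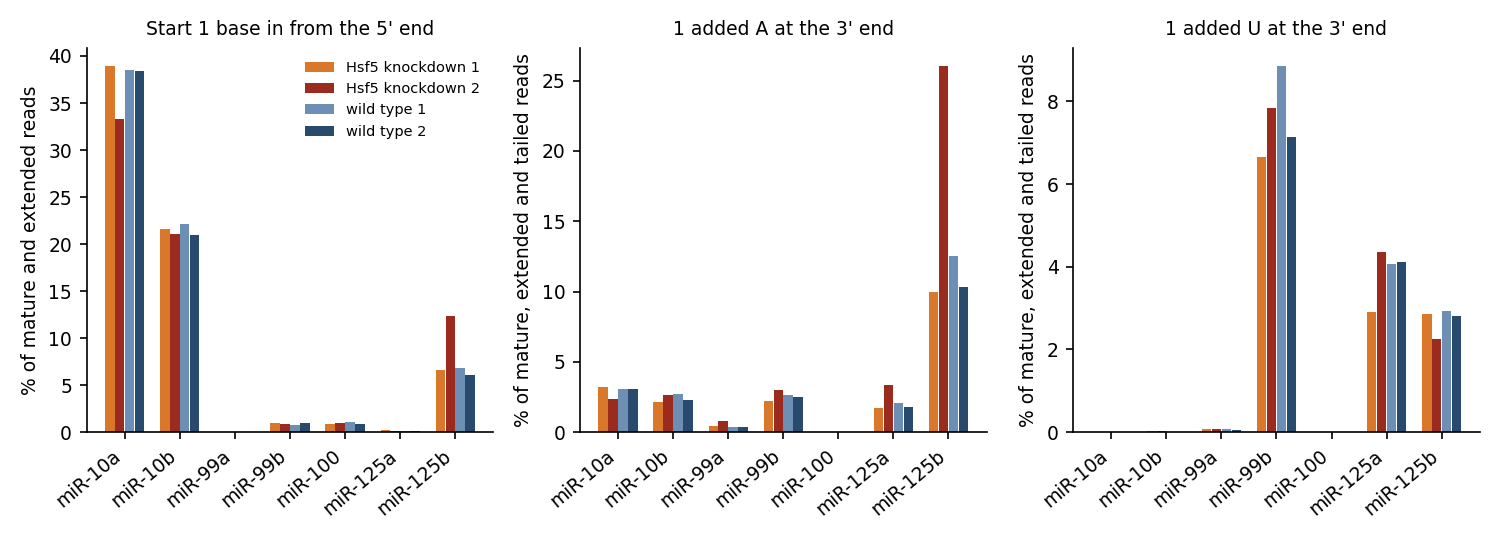
Share of reads of each miRNA that start 1 base inside the 5′ end (left), carry 1 added A (middle) or 1 added U (right) at the 3′ end, in percent; each bar is 1 library. The shifted start is at 33.3% to 38.9% in mmu-miR-10a-5p and 21.0% to 22.2% in mmu-miR-10b-5p, and the added A reaches 26.04% in mmu-miR-125b-5p in Hsf5 knockdown replicate 2, against 9.96% to 12.6% elsewhere; shares of added bases compare libraries, not miRNAs.

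No form passed the test between the groups when each sequence was tested by itself (0 of 77 member forms, 0% of 2128 forms of all mature miRNAs, edgeR's quasi-likelihood test, Benjamini-Hochberg adjusted, smallest adjusted p of a member form 0.998). At an unadjusted p under 0.05 there were 28 forms higher and 26 lower among the 2128. All 13 forms of mmu-miR-10b-5p and all 8 of mmu-miR-100-5p that were tested had a log2 difference above 0. For mmu-miR-125b-5p 9 of the 14 forms had one below 0. Of all 2128 forms 1023 were above 0 and 1105 below. Forms of 1 miRNA are not independent of each other. Without knockdown replicate 2 the most abundant form of mmu-miR-10b-5p stood at -0.23. With knockdown replicate 1 left out, 1 knockdown library remained, which is then assumed to vary as the wild-type pair does. The most abundant forms of mmu-miR-10a-5p (log2 1.19, SE 0.24) and mmu-miR-10b-5p (1.29, SE 0.24) were higher in it. Those of mmu-miR-99a-5p (-0.93, SE 0.25), mmu-miR-125a-5p (-1.16, SE 0.26) and mmu-miR-125b-5p (-1.66, SE 0.27) were lower. Those of mmu-miR-99b-5p and mmu-miR-100-5p stood at 0.090 and 0.54.

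The miRNA names whose profile over the 4 libraries lay closest to the median of the 7 members, by root mean square difference of centred log2 CPM among names with a mean of at least 100 CPM, were the hairpin names mir-127 (0.0416) and mir-26b (0.0576) and the mature miR-203-3p (0.0838). The median of the members' centred log2 CPM was 0.15 in both knockdown libraries and -0.14 and -0.10 in the wild type. It is not the profile of each member, since members went opposite ways in knockdown replicate 2. The level of mmu-miR-10b-5p was 32629 and 91347 CPM in the knockdown and 37461 and 34428 CPM in the wild type. That of mmu-miR-125b-5p was 23749 and 8327 CPM against 17795 and 20533 CPM. The level of mir-26b was 520 and 536 CPM in the knockdown and 455 and 421 CPM in the wild type.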

How the data were processed

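The authors deposited 1 table of raw read counts, not normalized, in which each line is 1 sequence in 1 library under 1 annotation. The submitters' processing notes name cutadapt and mm39, with no role. Per the labels' protocol, inserts of 18 to 40 bases were kept. Aligner, mismatches and priority among classes: not given in the sources used here. Each sequence was counted once per library, which dropped 6491165 repeated lines of 12700077, all with the same count. Counts of 936 miRNA names (mature and hairpin, at least 1 CPM in 2 libraries) and 2128 sequence forms were tested with edgeR 4.0.16 (robust quasi-likelihood test, TMM factors, Benjamini-Hochberg at 0.05, R 4.3.3), with DESeq2 1.42.0 as an alternative, and the fits were tested on simulated data. Ratios and shares were compared by exact permutation. Extended forms are hairpin-named reads holding bases 5 to 18 of the member. Reads with added bases matched at least 17 bases from the 5′ end, or from base 2, and ended in 1 or 2 other bases. The text names all members, their arms, let-7 neighbours, miRNAs of the same seed and the 3 miRNAs of the most similar profile; of the 5 most abundant forms of each member it prints those that carry a result. The members and lists were chosen with earlier results of these data known. Chi-square per degree of freedom over miRNA counts was 586 within the knockdown pair and 161 within the wild-type pair, so each library counts as its own sample, and p-values measure the spread between these samples.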

Additional observations from a re-analysis of the deposited data

How the results depend on the processing

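Of the alternatives run on the members, 43 values of single miRNAs, their forms and ratios changed sign, and none of these was past the test's threshold. The number of miRNA names called was 0 with the DESeq2 test, its size factors, both library totals, reads of 20 to 24 nt and 1 name per sequence, 2 without the low-count filter, and 0 to 53 with 1 library left out. It was 4 without knockdown replicate 2 and 4 without wild type replicate 2. For sequence forms it was 0 with miRNA totals or a 10 CPM minimum and 0 to 346 with 1 library left out. Scaling by miRNA totals moved the median of all names to -0.24 (log2), against 0.0090 with TMM, and gave -0.036 for miR-99b-5p, -0.012 for let-7a-5p, -0.14 for let-7e-5p and -0.099 for the most abundant form of miR-99b-5p. Whether replicate numbers pair the libraries cannot be decided from 2 pairs. The correlation of same-numbered deviations was 0.247 over 936 names, and crossed pairs give its negative by construction. Log2 CPM correlated at 0.9548 and 0.9347 between same-numbered libraries, 0.9114 within the knockdown pair and 0.9277 within the wild-type pair. Libraries of unlike number and group correlated at 0.9148 and 0.935. With a replicate block 0 names and 3 forms were called. The difference of the members' summed share, -0.96 percentage points, was 0.392 as a share of all 18 to 40 nt reads and -4.46 to 2.54 with 1 library left out, and it was -0.754 when extended and tailed reads were added, an alternative chosen after seeing the data. With 1 library left out, log2 differences ran from -0.087 to 1.39 for miR-10b-5p, -0.89 to 0.18 for miR-99a-5p, -1.15 to 0.33 for miR-125a-5p, -1.16 to 0.36 for miR-125b-5p, -0.035 to 1.17 for let-7c-5p (the second name with a call, adjusted p = 0.0452 by edgeR without knockdown replicate 1) and -0.11 to 0.54 for let-7e-5p. For the most abundant forms they ran from -0.23 to 1.29 (miR-10b-5p), -1.16 to 0.37 (miR-125a-5p), -1.66 to 0.25 (miR-125b-5p) and -0.014 to 0.18 (miR-99b-5p). Log2 ratios ran from -2.06 to 0.22 (miR-99a to let-7c), -0.18 to 0.26 (miR-99a to miR-125b), -0.052 to 1.88 (miR-100 to miR-125b), -0.22 to 0.36 (miR-99b to let-7e), -0.066 to 1.47 (miR-99b to miR-125a), -1.69 to 0.43 (miR-125a to let-7e), -0.70 to 0.25 (miR-10b to miR-10a), -0.13 to 0.16 (miR-125b to miR-125a) and -0.27 to 2.28 (miR-10b to miR-99a). Mean lengths ran from -0.0377 to 0.0012 nt (miR-10a-5p) and -0.0978 to 0.0151 nt (miR-125b-5p), shifted starts from -5.12 to 0.474 points (miR-10a-5p) and -0.866 to 0.359 points (miR-10b-5p). Shares with an added A ran from -0.708 to 0.0945 points (miR-10a-5p), -0.419 to 0.137 (miR-10b-5p), -0.357 to 0.445 (miR-99b-5p), -0.265 to 1.38 (miR-125a-5p) and -1.49 to 14.6 (miR-125b-5p), and with an added U from -1.61 to 0.103 (miR-99b-5p) and -1.19 to 0.256 (miR-125a-5p). With each distinct sequence counted once, mean length differences were 0.105 nt (miR-10b-5p), 0.21 nt (miR-99a-5p) and 0.0909 nt (miR-100-5p), and the shifted start of miR-10a-5p differed by 1.61 points. The causes were not tested. With 2 libraries per group, the smallest exact p is 0.333.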

Other observations

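Other miRNAs tied to the families by seed or by place showed the following values, with no explanation given. The X-linked miR-351-5p, which has the miR-125 seed, stood at 6975 and 3091 RPM in the knockdown and 6352 and 6114 RPM in the wild type, so that knockdown replicate 2 was at 0.496 times the wild-type mean, a smaller shift than the 0.279 and 0.278 times of miR-125a-5p and miR-125b-5p. The Hox cluster miRNA miR-196a-5p, made in part from Mir196a-1, between Hoxb13 and Hoxb9, stood at 159 and 117 RPM in the knockdown and 157 and 149 RPM in the wild type, and miR-196b-5p, from Mir196b within Hoxa9, at 38.5 and 5.94 RPM in the knockdown and 20.01 and 20.8 RPM in the wild type. In RPM knockdown replicate 2 stood at 0.767 and 0.291 times the wild-type mean for this pair, where miR-10b-5p was at 1.62 times. In CPM it was the highest library for miR-196a-5p, at 127 and 148 in the knockdown and 128 and 120 in the wild type. Of the 3p arms of the 3 let-7 neighbours, 2 had enough reads to be tested and were low in knockdown replicate 2: let-7c-1-3p, the arm that comes from the gene next to Mir99a alone, had 78.6 and 36.7 RPM in the knockdown and 129 and 98.3 RPM in the wild type, and let-7e-3p had 103 and 28.6 RPM in the knockdown and 75.0 and 81.8 RPM in the wild type.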
